A study of Mus musculus with 2 samples.

Results

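The cells described here were B16F10 melanoma cells whose RNA marked them as being in G2 or mitosis. B16F10 is an established mouse melanoma line, and it had been injected under the skin of C57BL/6 hosts. A cell was counted as a melanoma cell when the pigment genes Pmel, Dct, Mlana and Tyrp1 made up at least 0.5% of its transcripts and no transcript of Ptprc, the leukocyte surface protein CD45, was seen. It was counted as a G2/M cell when at least 6 of the 10 mitotic genes Ube2c, Cenpe, Prc1, Cenpf, Tpx2, Kif11, Mki67, Cdca8, Racgap1 and Cdk1 were detected, unless 6 or more of 10 S-phase genes (Hells, Ung, Mcm3, Uhrf1, Cdt1, Dtl, Cdc6, Chaf1a, Mcm4 and Mcm2) were detected as well. The rule found 923 cells among 3557 melanoma cells, out of 7418 cells that passed the quality limits and 11778 deposited barcodes. Of these, 499 came from the wild-type library and 424 from the knockout library.

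The libraries were made from small tumours of hosts aged 11 weeks, with males and females pooled. Wild-type (WT) hosts were Rosa26::CreERT2:Atf4wt/wt and knockout (KO) hosts were Rosa26::CreERT2:Atf4D/D, in which tamoxifen given to both genotypes had removed the floxed part of Atf4 from host tissues. The CreERT2 recombinase is expressed throughout the body, so the deletion is not limited to 1 host cell type, and the injected melanoma cells carried their own intact Atf4 in both libraries. Each genotype was 1 library from 2 pooled tumours. There was therefore no replicate of either genotype and no test between them, and every interval given here is a 95% interval that covers counting error only. A difference between the libraries cannot be told apart from a difference between tumours, mice or preparations.

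In a dividing cell, E2F factors switch on the genes of DNA replication before S phase, and a later group of genes is switched on through G2 and mitosis. Many genes of that later group carry a cell cycle homology region (CHR), bound by the MuvB complex with B-MYB and FOXM1, often beside a CCAAT box bound by NF-Y. Cyclin B with CDK1 then drives the cell into mitosis, kinesins build the spindle, and the anaphase-promoting complex with its partner CDC20 marks cyclin B and securin for destruction so that the cell can divide.

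The promoters of the rule genes are the regulatory sequences behind this choice of cells. Promoter sequences from RefSeq (GRCm38.p6) were searched on both strands for the CHR (TTTGAA or TTCGAA), the CCAAT box (CCAAT) and 4 forms of the E2F site (TTTCGCGC, TTTGGCGC, TTTCCCGC and TTTGCCGC). Shown are 3 G2/M rule genes, 2 mitotic genes outside the rule and, for contrast, the S-phase rule gene Hells. Each sequence runs 5′ to 3′ on the gene's own strand over 170 bases, of which 150 lie before the start site, and capitals mark matches to these motifs in either orientation. The windows are chr2:164769779-164769948 on the plus strand for Ube2c, chr10:69352893-69353062 on the minus strand for Cdk1, chr19:37376232-37376401 on the plus strand for Kif11, chr9:70421535-70421704 on the minus strand for Ccnb2, chr4:118437324-118437493 on the minus strand for Cdc20 and chr19:38930840-38931009 on the plus strand for Hells.
Ube2c: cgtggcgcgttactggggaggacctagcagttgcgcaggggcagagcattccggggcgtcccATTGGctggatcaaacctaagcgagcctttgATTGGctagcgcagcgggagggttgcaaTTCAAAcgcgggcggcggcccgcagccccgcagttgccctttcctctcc
Cdk1: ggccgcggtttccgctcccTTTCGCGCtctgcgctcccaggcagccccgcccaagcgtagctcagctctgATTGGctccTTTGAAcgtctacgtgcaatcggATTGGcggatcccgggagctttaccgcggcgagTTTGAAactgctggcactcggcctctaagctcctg
Kif11: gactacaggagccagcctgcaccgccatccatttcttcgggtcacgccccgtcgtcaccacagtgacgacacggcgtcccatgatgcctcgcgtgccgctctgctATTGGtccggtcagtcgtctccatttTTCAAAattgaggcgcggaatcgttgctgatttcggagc
Ccnb2: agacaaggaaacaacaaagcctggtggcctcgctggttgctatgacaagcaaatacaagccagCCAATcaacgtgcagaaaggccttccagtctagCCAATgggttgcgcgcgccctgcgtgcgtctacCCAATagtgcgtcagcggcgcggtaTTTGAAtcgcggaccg
Cdc20: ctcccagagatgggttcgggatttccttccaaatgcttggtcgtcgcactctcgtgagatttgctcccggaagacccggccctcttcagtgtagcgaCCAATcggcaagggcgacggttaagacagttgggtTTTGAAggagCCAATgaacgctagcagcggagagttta
Hells: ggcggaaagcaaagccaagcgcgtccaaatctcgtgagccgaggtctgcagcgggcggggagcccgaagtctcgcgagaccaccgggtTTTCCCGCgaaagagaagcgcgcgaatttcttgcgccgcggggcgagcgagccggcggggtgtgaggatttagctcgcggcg

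The CHR of Ube2c began 29 bases before the start site, that of Kif11 19 bases before it and that of Cdc20 18 bases before it. Cdk1 held a pair of CHR matches, at positions -71 and -15, and Ccnb2 held its nearest one at position 4. The Hells promoter held an E2F match and neither of the other motifs in this window. Over the whole 300 bases searched for each promoter, 9 of the 10 G2/M rule genes had an entry, with 10 promoters, of which 9 held a CHR and 10 held a CCAAT box. Of the 10 promoters of S-phase rule genes, 1 held a CHR and 6 held an E2F match. Among all 32851 promoters searched, 19.2% held a CHR, 37.4% a CCAAT box and 2.26% an E2F match.

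The rule was first checked against depth and against other cells. The G2/M cells had a median of 12806 UMIs (counted transcript molecules) in WT and 12740.5 in KO, against 10890 and 10248 in the other melanoma cells. Their median mitochondrial share was 6.17% in WT and 5.52% in KO. After each cell had been thinned to 2000 UMIs, 6 or more rule genes were still seen in 17.5% of G2/M cells in WT and 13.9% in KO, in 2.54% and 1.29% of other melanoma cells, and in 3.1% and 1.99% of the immune cells of the same tumours, which had a Ptprc transcript and too few pigment transcripts for the rule. Immune cells with under 2000 UMIs were left out, 348 of 606 in WT and 161 of 312 in KO. The immune shares thus rest on the 258 WT and 151 KO cells that were deep enough. The median depth of all immune cells was 1686.5 UMIs in WT and 1930.5 in KO before thinning. At 2000 UMIs, Ube2c was the rule gene seen most often in G2/M cells, in 59.6% in WT and 54.2% in KO, against 17.8% and 12.6% of immune cells. A doublet caller marked 16 G2/M cells in WT (3.21%) and 3 in KO (0.708%). The libraries shared 10 barcodes, 1 of which belonged to a G2/M cell.

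**Figure D1:**
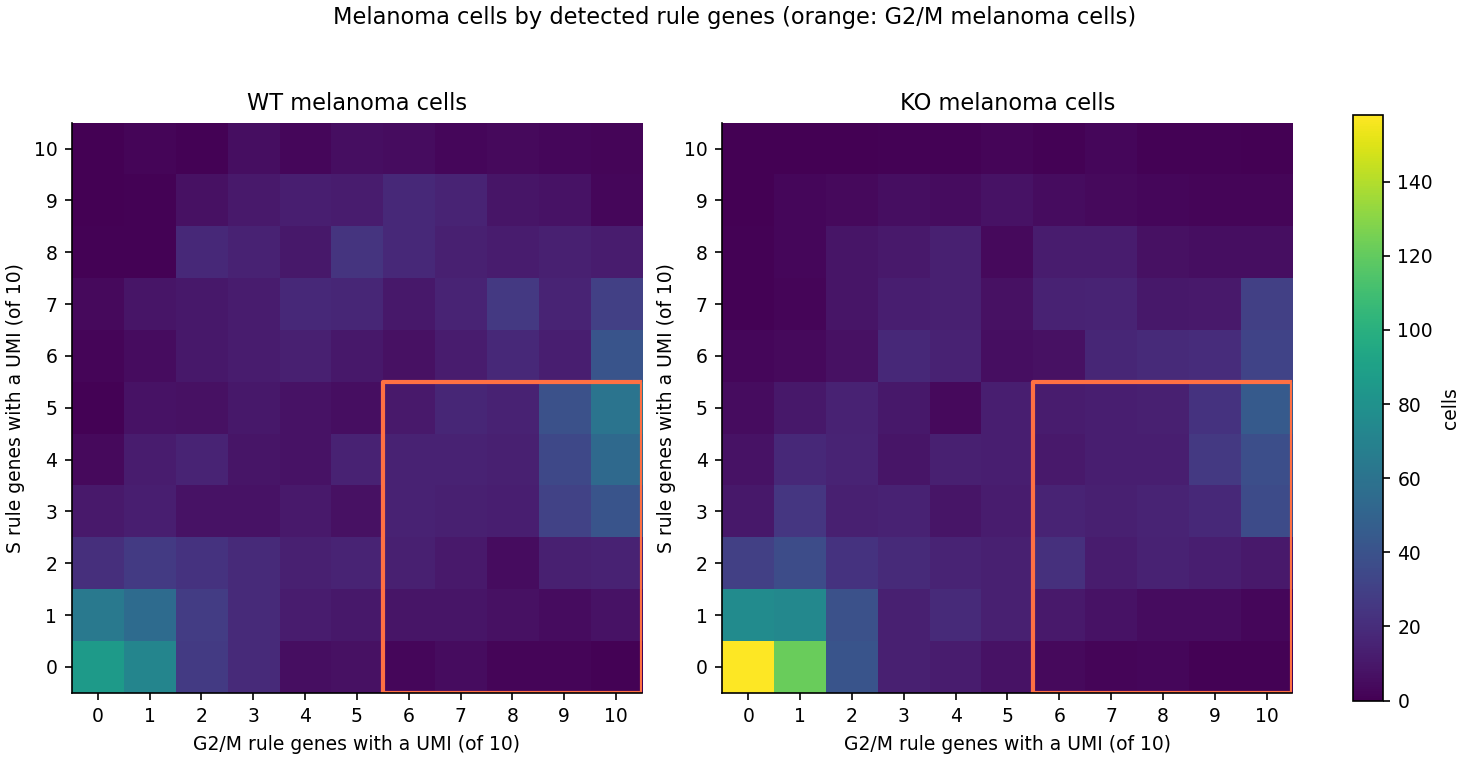
Number of melanoma cells by the number of G2/M rule genes detected (horizontal axis, 0 to 10) and of S-phase rule genes detected (vertical axis, 0 to 10), one panel per library. Brighter squares hold more cells, and the chosen cells lie inside the orange box. The box holds 499 WT and 424 KO cells, and cells that were low for both lists, at the lower left, numbered 403 in WT and 600 in KO.

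The 6 marker genes given for these cells were all higher in them, as the rule required. Ube2c, the ubiquitin-conjugating enzyme of the anaphase-promoting complex, was at 565 counts per 1000000 UMIs of the class (CPM) in WT G2/M cells and 499 CPM in KO, against 138 and 115 CPM in the other melanoma cells. Cenpf, a kinetochore protein, was at 341 and 371 CPM against 83.5 and 67.7 CPM. Mki67, which coats mitotic chromosomes, was at 327 and 330 CPM against 134 and 91.7 CPM. Each of the 3 was more than 2-fold higher in both libraries. Cenpe, the kinesin that carries chromosomes to the spindle equator, was at 201 and 181 CPM against 63.9 and 45.0 CPM. Prc1, which bundles the microtubules of the midzone, was at 238 and 235 CPM against 65.2 and 57.6 CPM. Tpx2, an activator of Aurora A on the spindle, was at 222 and 213 CPM against 63.2 and 59.4 CPM. Summed over the 10 rule genes, the level was 2805 CPM in WT and 2649 in KO G2/M cells, against 911 and 712 CPM in the others. The cells were chosen by these values, which are therefore a description. The same holds for every comparison of G2/M with other melanoma cells, since all genes of the same cells were counted together.

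The cut at 6 rule genes fell inside a continuous range. In WT, 61 cells with under 6 S-phase rule genes had 5 G2/M rule genes and 67 had 6, and in KO there were 74 and 76. The summed rule genes stood at 947 CPM in the WT cells with 5 and 1243 CPM in those with 6, and at 868 and 1111 CPM in KO. Cells with all 10 rule genes were the most numerous step among the members, with 180 cells in WT and 134 in KO, and their sum reached 3699 and 3641 CPM. Some genes outside the rule were also higher in the cells with more rule genes, though not at every step. Ccnb1, the cyclin that activates CDK1, went from 104 CPM at 5 rule genes to 319 CPM at 10 in WT, and from 104 to 306 CPM in KO. Top2a, the topoisomerase that untangles sister chromatids, went from 67.8 to 785 CPM in WT and from 89.9 to 727 CPM in KO. Median depth also went up along this range, from 9650 to 15337 UMIs in WT and from 9897.5 to 15469 UMIs in KO.

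**Figure D2:**
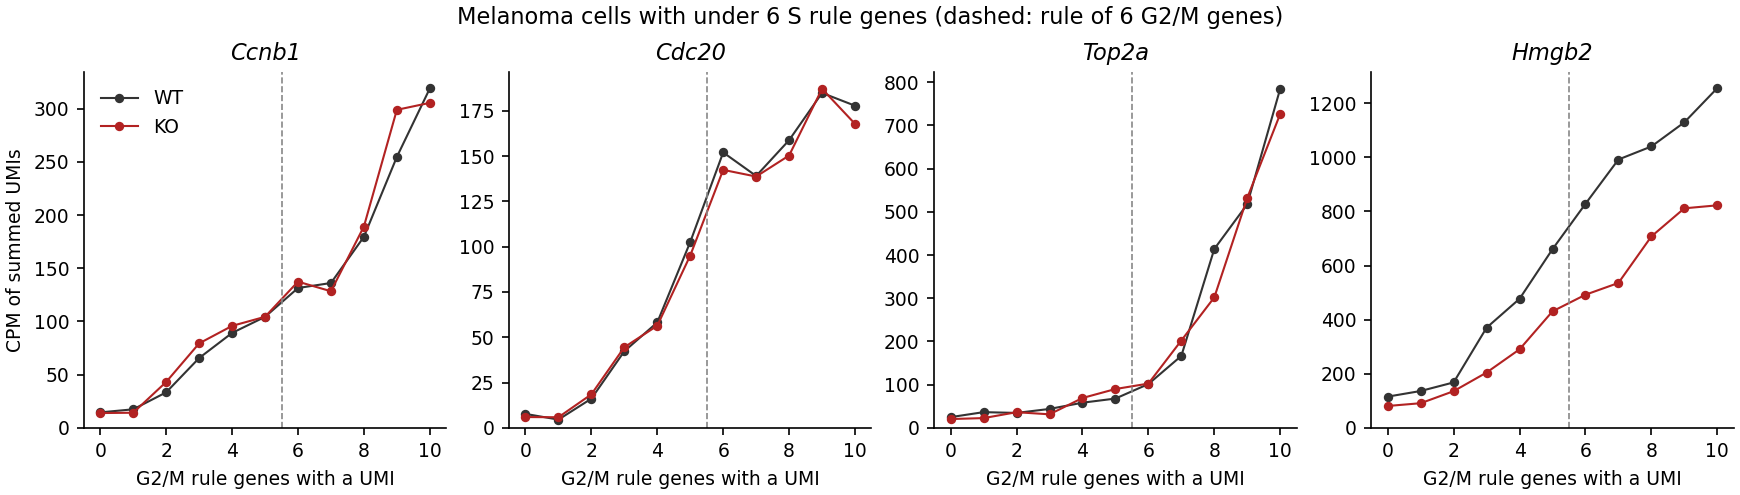
Level of Ccnb1, Cdc20, Top2a and Hmgb2 in CPM (vertical axis) by the number of G2/M rule genes detected in a cell (horizontal axis), in melanoma cells with under 6 S-phase rule genes, with one line per library. The dashed line marks the limit of the rule. Above it Cdc20 went up little, from 152 CPM in WT and 142 in KO at 6 rule genes to 178 and 168 CPM at 10, whereas Top2a went on upwards to 785 and 727 CPM, and Hmgb2 was lower in KO at every step.

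Genes outside the rule were then compared between G2/M cells and other melanoma cells. Of 9919 genes with enough UMIs to be measured (50 over both classes in each library), 106 were more than 2-fold higher in G2/M cells in both libraries, which is 1.07%, and 20 were more than 2-fold lower, which is 0.202%. The 12 leading genes outside the rule were Fam83d, Pif1, Nusap1, Cdc20, Nek2, Arhgap19, Prr11, Aspm, Kif23, Kif14, Cdc25c and Kif2c. Fam83d, a spindle protein that recruits casein kinase 1 alpha, was at 33.1 CPM in WT and 37.5 in KO G2/M cells, against 6.11 and 5.71 CPM in the others, a log2 ratio of 2.44 in WT and 2.72 in KO. Nusap1, a microtubule-bundling protein, was at 117 and 90.9 CPM against 26.6 and 18.4 CPM. Aspm, a spindle pole protein whose loss causes microcephaly, was at 96.2 and 91.6 CPM against 23.9 and 18.2 CPM. Across all 9919 genes the median log2 ratio was -0.01 in WT and 0.01 in KO, with 95% of genes between -0.68 and 0.61 in WT and between -0.70 and 0.74 in KO. Scaling to the class total holds such a median near 0. How many of all 9919 genes lay on the same side in both libraries was not counted. Counts of list members higher or lower in both libraries are therefore a description only.

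Mitotic cyclins, kinases and their regulators stood higher almost throughout. Of 23 measured members, 22 were higher in both libraries and 14 were past 2-fold, with a median log2 ratio of 1.17 in WT and 1.38 in KO. Ccnb1 was at 250 CPM in WT and 241 in KO G2/M cells against 84.8 and 74.8 CPM. Plk1, the polo-like kinase that triggers mitotic entry, was at 125 and 108 CPM against 34.9 and 26.5 CPM. Aurka, the kinase of the spindle poles, was at 96.9 and 90.9 CPM against 29.6 and 24.0 CPM. These were more than 2-fold differences in each library. The exception was Mybl2, which encodes the MuvB partner B-MYB and is itself an E2F target. It was at 16.3 CPM in WT G2/M cells against 19.9 CPM in the others (log2 ratio -0.29), but at 27.2 against 16.2 CPM in KO (log2 ratio 0.75).

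The machinery of anaphase differed member by member. Cdc20, which directs the anaphase-promoting complex to its first mitotic substrates, was at 171 CPM in WT and 162 in KO G2/M cells against 39.2 and 35.9 CPM, log2 ratios of 2.13 and 2.17. Fzr1, the partner that takes over at mitotic exit, and Espl1, the separase that cuts cohesin, were the other two members past 2-fold. The median over the 11 measured members was only 0.16 in WT and 0.19 in KO, and 9 of them were higher in both libraries. Ube2s, which extends ubiquitin chains on substrates of the complex, was abundant in all melanoma cells, at 1248 and 1059 CPM in G2/M cells against 816 and 658 CPM.

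The structural groups stood higher as groups. In the spindle, kinesin and tubulin list, 20 of 26 members were past 2-fold and 26 of 26 were higher in both libraries, with medians of 1.45 in WT and 1.52 in KO. In the chromosomal passenger and cytokinesis list, 11 of 11 were past 2-fold, with medians of 1.26 and 1.53. Birc5, the passenger subunit survivin, was at 548 CPM in WT and 510 in KO against 270 and 209 CPM. In the centromere and kinetochore list, 10 of 20 were past 2-fold and 20 of 20 were higher, with medians of 1.10 and 1.21. Cenpa, the histone H3 variant of centromeres, was at 305 and 286 CPM against 102 and 89.3 CPM. Condensation and chromatin genes stood apart less, with 4 of 18 past 2-fold and medians of 0.61 and 0.65. Hmgb2, a DNA-bending protein, was at 1130 CPM in WT but 720 CPM in KO G2/M cells, against 562 and 304 CPM. These lists overlap the biology of the rule genes, so their counts are a description of the cells chosen.

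**Figure D3:**
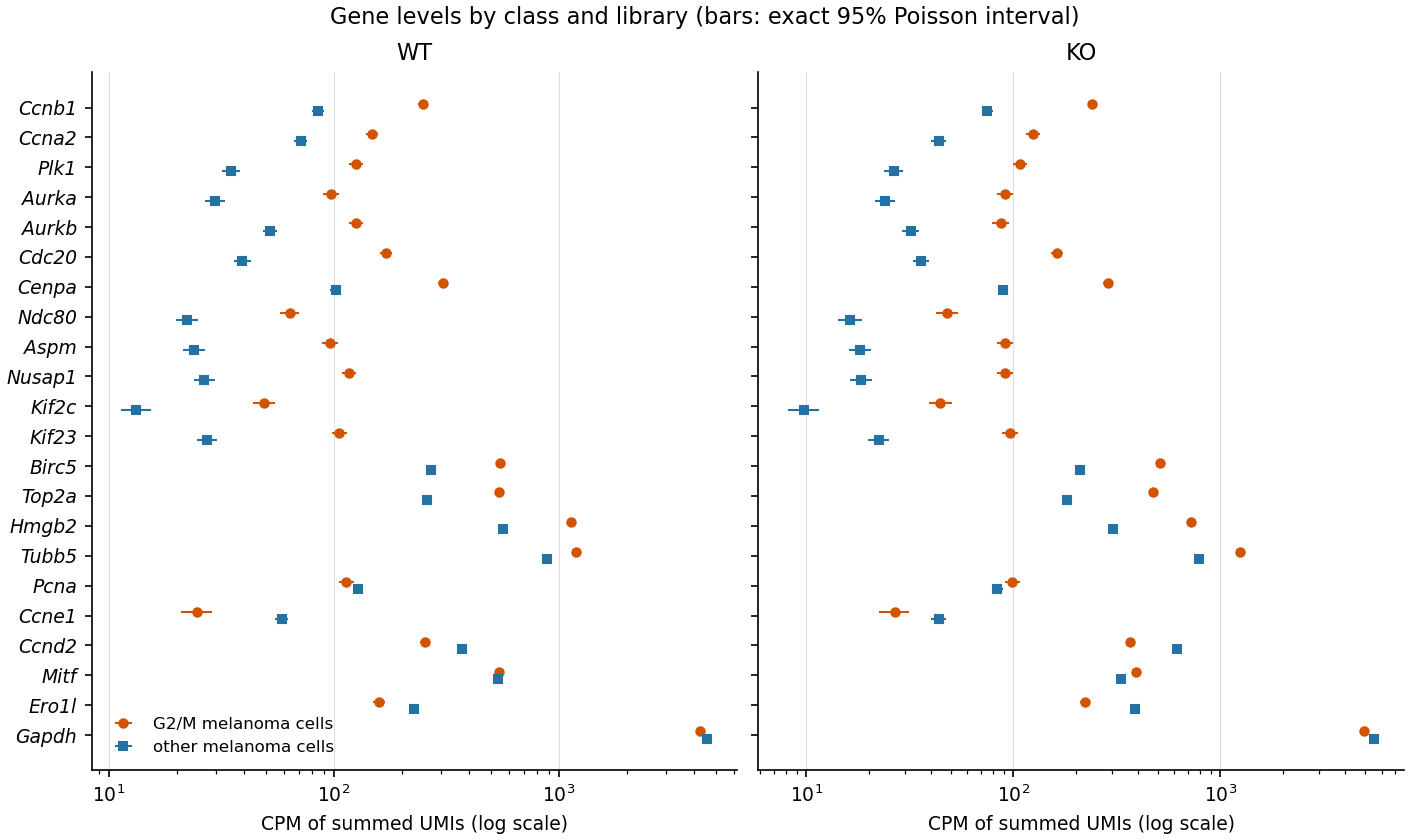
Level in CPM (log axis) of 22 genes in G2/M cells and in other melanoma cells of each library, with exact 95% Poisson intervals of the summed UMIs. Cdc20 stood at 171 and 162 CPM in WT and KO G2/M cells against 39.2 and 35.9 CPM in other melanoma cells, whereas Ccne1 and Ccnd2 lay on the lower side in both libraries.

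The promoters of genes higher in G2/M cells often held a CHR, as did those of the rule genes that chose the cells. The genes were found through those cells, so the shares below are a description. Of the 96 non-rule genes more than 2-fold higher in G2/M cells, 81 matched a RefSeq entry, with 90 promoters. A CHR was found in 60 of these promoters (66.7%), against 13.8% of the 10117 promoters of all measured genes and 1 of 13 promoters of the genes more than 2-fold lower. A CHR together with a CCAAT box was found in 51.1% of them, against 5.70% of all measured genes. Many of the matches lay near the start site. A CHR that began between positions -50 and 24 was held by 43.3% of these promoters and by 8 of the 10 rule gene promoters, against 2.90% of the promoters of measured genes. By group, a CHR was found in 64.0% of spindle gene promoters, 70.0% of passenger and cytokinesis promoters, 56.2% of mitotic kinase promoters and 52.4% of kinetochore promoters, but in 30.8% of promoters of the anaphase-promoting complex list, 20% of pigment gene promoters, 18.5% of replication gene promoters and 14.7% of glycolysis and hypoxia promoters. E2F matches were found in 25.9% of replication gene promoters and in 4.25% of those of all measured genes. A match is a description of the letters, and binding was not measured here.

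**Figure D4:**
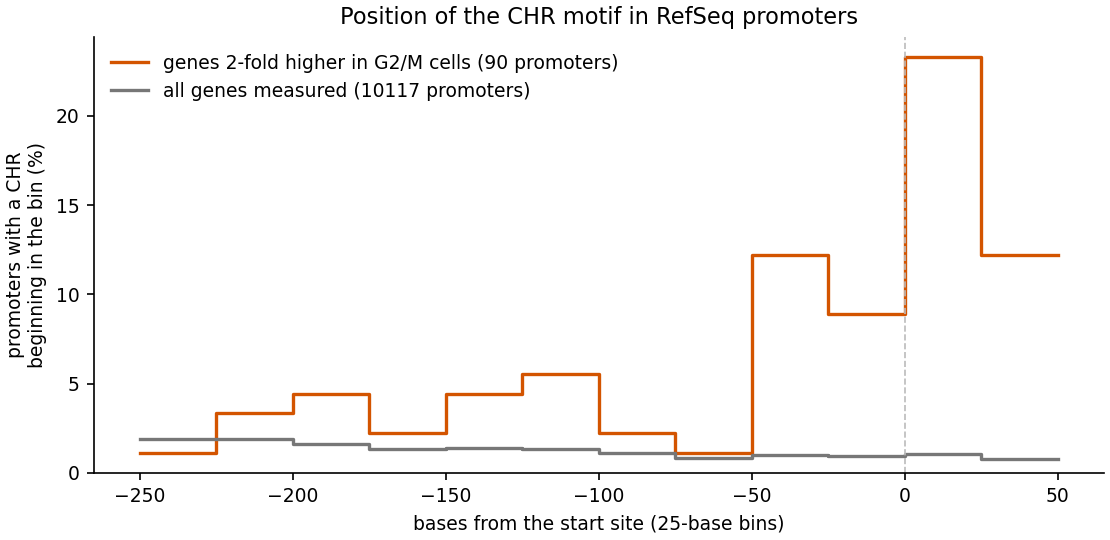
Percent of promoters in which a CHR match begins in each 25-base step from the start site (horizontal axis, bases from the start site), for 90 promoters of non-rule genes more than 2-fold higher in G2/M cells and 10117 promoters of all measured genes. Between positions -50 and 24 a match began in 43.3% of the former and 2.90% of the latter.

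The genes lower in G2/M cells were fewer and mostly sparse. Ccne2, the cyclin E that drives entry into S phase, was at 4.05 CPM in WT and 2.56 in KO G2/M cells against 14.2 and 9.73 CPM, log2 ratios of -1.81 and -1.93. Its direction depends on the comparison cells, since it was higher in G2/M cells than in cells low for both programmes (1.82). Mxd4, a MAX-binding repressor that opposes MYC and marks cells leaving the cycle, was the best counted of the lower genes, with 103 UMIs in WT and 101 in KO G2/M cells. Its level was 16.0 and 18.5 CPM against 40.2 and 44.6 CPM. The other 10 named lower genes were Hspb1, Kcnj13, H2-Eb1, Chac1, H2-Ab1, Snhg7os, Fbln2, Trp53cor1, H2-Aa and Lox, each with 32 UMIs or fewer in the G2/M cells of either library. The MHC class II genes H2-Aa, H2-Ab1 and H2-Eb1 belong to antigen-presenting cells. The 11 macrophage markers, which include H2-Aa itself, summed to 146 CPM in WT G2/M cells against 232 CPM in the others. In KO they summed to 126 against 152 CPM. Fibroblast markers, 7 genes, summed to 92.6 against 171 CPM in WT and 97.8 against 126 CPM in KO. The part of RNA from those cells in the lower genes was not tested.

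Replication genes outside the rule were not set apart in 1 direction. Their median log2 ratio of G2/M over other melanoma cells was -0.16 in WT and 0.22 in KO, and of 26 members 8 were higher and 4 lower in both libraries. Rrm2, the ribonucleotide reductase subunit, was at 216 CPM in WT G2/M cells against 239 CPM, and at 183 against 158 CPM in KO. Ccne1, the second cyclin E, was lower in both, at 24.6 and 26.7 CPM against 58.6 and 43.6 CPM. The comparison cells differed here, since S-phase cells made up 14.4% of melanoma cells in WT and 9.57% in KO. Cells with 6 or more genes of both lists, which were also among the comparison cells, made up 18.6% and 13.5%. The excluded S-phase rule genes were lower in 9 of 10 cases, as the rule fixed.

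In G1 regulators the direction was mixed. Of 18 measured D cyclins, CDK inhibitors and p53 targets, 11 were lower and 6 higher in G2/M cells of both libraries, with medians of -0.08 in WT and -0.12 in KO. Ccnd1 and Ccnd2, the D cyclins that carry growth signals in G1, were at 66.0 and 254 CPM in WT G2/M cells against 104 and 371 CPM, and at 131 and 364 CPM in KO against 184 and 618 CPM. Cdkn2c, the CDK4 and CDK6 inhibitor p18, went the other way, at 61.5 and 47.5 CPM against 39.3 and 23.0 CPM. All 24 measured glycolysis and hypoxia genes were lower in both libraries, with median log2 ratios of -0.18 in WT and -0.27 in KO, but 0 of 24 were past 2-fold. The share of all measured genes that were lower in both libraries was not counted, for this list or those below. Ero1l, a hypoxia-induced oxidase of the endoplasmic reticulum, was at 159 and 222 CPM against 226 and 389 CPM. Heat shock genes did not lean that way, since 5 of 9 were higher and 2 lower in both libraries, with medians of 0.00 and 0.01. ER chaperones were lower in 13 of 14 cases, with medians of -0.10 and -0.20, and cytosolic ribosomal proteins in 29 of 30, with medians of -0.05 and -0.09. Pigment genes outside the rule had medians of -0.03 and -0.08, and Mitf, the master factor of melanocytes, was at 540 against 535 CPM in WT and 392 against 331 CPM in KO. With each gene first averaged over the libraries, the median of the glycolysis and hypoxia list was -0.24, and it was 0.071 when S-phase cells alone were the comparison, so the direction turned.

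The G2/M cells differed among themselves, more in some mitotic genes than in others. They were split by rule genes before thinning. Cells with 6 or 7 numbered 138 in WT and 138 in KO, and cells with 8 to 10 numbered 361 and 286. Levels were then taken after each cell was thinned to 5000 UMIs. This left out 13 and 2 of these cells in WT and 3 and 1 in KO. Median depth before thinning was 9631 UMIs in cells with 6 or 7 rule genes and 14125 in cells with 8 to 10 in WT. In KO it was 10272.5 and 13916 UMIs. The split thus also sorted cells by depth, and the part of depth in the ratios was not tested. Top2a was higher in the cells with 8 to 10 rule genes by a log2 ratio of 2.32 in WT (1.98 to 2.67) and 2.09 in KO (1.77 to 2.43). Aurkb, the passenger complex kinase, differed by 2.33 and 1.53, Aurka by 2.10 and 1.33, and Kpna2, a nuclear import receptor, by 2.08 and by 3.05 (1.63 to 4.97). The Kpna2 ratios rested on only 14 UMIs in WT and 4 in KO in the cells with 6 or 7 rule genes. Nusap1 differed by 1.57 and 1.81 and Ccnb1 by 1.08 and 0.96. Other genes differed less across the split. Ccnb2, the second B cyclin, differed by -0.21 in WT (-0.51 to 0.11) and -0.01 in KO (-0.37 to 0.34), and Cdc20 by 0.26 (-0.08 to 0.61) and 0.11 (-0.22 to 0.46). Cenpa differed by -0.11 (-0.34 to 0.13) and 0.09 (-0.16 to 0.34). For Birc5, at 0.18 and 0.23 (0.04 to 0.42 in KO), and Ube2s, at 0.05 and 0.19 (0.05 to 0.32 in KO), the KO interval lay above 0. Split instead by S-phase rule genes, a split chosen after the data had been seen, cells with 0 to 2 of them stood below cells with 3 to 5 in Rrm2, by -0.90 in WT and -0.37 in KO, and in Top2a, by -0.52 and -0.86. Cdc20 was higher in the cells with 0 to 2, by 0.59 (0.26 to 0.91) and 0.30 (-0.05 to 0.64). Depth differed across this split too. Its median before thinning was 9937 UMIs in WT cells with 0 to 2 and 13531 in those with 3 to 5. In KO it was 10143 and 13555.5 UMIs.

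The share of G2/M cells among melanoma cells was 28.2% in WT (26.1 to 30.4) and 23.7% in KO (21.8 to 25.8) as counted, a log2 KO over WT ratio of -0.25 (-0.44 to -0.06). Thinned to 5000 UMIs per cell, which left out 209 WT and 202 KO cells, it was 29.1% in WT (26.9 to 31.5; 455 of 1561 cells) and 22.1% in KO (20.1 to 24.2; 350 of 1585 cells), a log2 ratio of -0.40 (-0.61 to -0.20). The ratio was -0.26 (-0.53 to 0.00) at 3000 UMIs and -0.09 (-0.29 to 0.11) at 10000 UMIs, so the interval reached 0 at both other depths. By depth as counted, the share was 24.2% in WT and 17.9% in KO for cells with 5000 to 10000 UMIs, 28.9% and 26.8% from 10000 to 15000, 47.7% and 42.6% from 15000 to 20000, and 32.1% and 38.0% from 20000 upwards. The KO share was thus lower in every step below 20000 UMIs, including that below 5000, which held only 15 WT and 4 KO G2/M cells. The interval of the log2 ratio held 0 from 10000 to 15000 (-0.39 to 0.17) and from 15000 to 20000 (-0.55 to 0.22). Above 20000 UMIs, where only 53 WT and 50 KO cells lay, the KO share was higher, with an interval that also held 0.

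The neighbouring classes of melanoma cells showed where the remaining cells stood. S-phase cells were at 14.4% in WT and 9.57% in KO (log2 ratio -0.58, -0.87 to -0.30), and cells with both programmes were at 18.6% and 13.5% (-0.46, -0.71 to -0.22). Cells low for both, with at most 2 genes of each list, were at 22.8% in WT and 33.6% in KO (0.56, 0.38 to 0.75). Over all melanoma cells, with no rule on cells, the summed G2/M rule genes were at 1529 CPM in WT and 1266 in KO (log2 ratio -0.27, -0.30 to -0.25) and the summed S-phase rule genes at 810 and 595 CPM (-0.45, -0.48 to -0.41). Fewer dividing cells and less of this RNA per cell cannot be told apart in such a sum.

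Atf4, the targeted gene, was first compared between the libraries. In G2/M cells it was at 236 CPM in WT (225 to 249) and 207 CPM in KO (195 to 219), a log2 ratio of -0.19 (-0.31 to -0.08), and in other melanoma cells at 222 and 199 CPM. In the immune cells, which are host cells, it was at 178 CPM in WT and 48.6 in KO, a log2 ratio of -1.88 (-2.44 to -1.35). The melanoma cells thus kept their Atf4 transcript in both libraries while host cells of the KO library held less of it.

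G2/M cells were then compared between the libraries. Of 9288 genes measured in the G2/M cells (50 UMIs over both libraries), 107 were more than 2-fold higher in KO, which is 1.15%, and 43 more than 2-fold lower, which is 0.463%. The median over all of them was 0.02, with 95% of genes between -0.61 and 0.76. The median log2 KO over WT ratio was -0.09 for mitotic cyclins and kinases, -0.17 for kinetochore genes, -0.10 for spindle genes, -0.02 for passenger and cytokinesis genes and -0.11 for replication genes, whereas in the other melanoma cells these lists stood at -0.30, -0.34, -0.31, -0.29 and -0.50. In each of these 5 lists the median lay nearer 0 in G2/M cells, but members went both ways, and the spindle genes ranged from -1.02 to 0.76. The rule itself holds such genes at a like level in the members, S-phase cells were a larger share of the other melanoma cells in WT, and the difference was not tested.

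Single mitotic genes differed more. For mitotic cyclin and kinase genes the interval lay below 0 for 8 and above 0 for 1 of 23. For spindle genes it did so for 9 and 4 of 26, and for condensation and chromatin genes for 9 and 1 of 18. How many of all 9288 genes had such an interval was not counted, so these numbers are a description only. Past 2-fold were 0 of the 23, 1 of the 26 and 0 of the 18. Over all measured genes 1.15% were past 2-fold higher and 0.463% lower. Kpna2 was at 87.7 CPM in WT and 43.3 in KO G2/M cells (log2 ratio -1.02, -1.24 to -0.80), Hmgb2 at 1130 and 720 CPM (-0.65, -0.71 to -0.59) and Aurkb at 126 and 86.9 CPM (-0.53, -0.70 to -0.37). On the other side, Tuba1c, an alpha tubulin, was at 101 and 170 CPM (0.76, 0.61 to 0.90) and H2afx, the histone variant marked at DNA breaks, at 102 and 138 CPM (0.44, 0.29 to 0.59). All 5 had the same direction in other melanoma cells. Mybl2 did not, with a ratio of 0.74 (0.37 to 1.11) in G2/M cells and -0.30 in the others. Among genes with at least 100 UMIs in each class of each library, it led those whose KO over WT ratio was higher in G2/M cells than in other melanoma cells, followed by Col1a1, Clspn, Mcm7 and Rcbtb2. Col1a1, a fibroblast collagen, rested on 1 cell, which held 107 of its 165 KO UMIs. Its KO over WT ratio in G2/M cells was 0.51, and it turned to -0.51 (-1.0 to -0.02) when the cell with the most Col1a1 was left out of each library, an alternative chosen after seeing the data. Clspn, an adaptor of the replication checkpoint, had 0.43 against -0.46, and Mcm7, a subunit of the replicative helicase, 0.32 against -0.57. At the other end were Cyb5r1, Azgp1, Blzf1, Atf3 and Gm26532. Atf3, a stress-induced transcription factor, had 0.36 against 1.10.

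The list of D cyclins, CDK inhibitors and p53 targets went both ways between the libraries, with 10 of 17 measured members higher and 7 lower in KO G2/M cells and a median of 0.23 against 0.34 in other melanoma cells. Cdkn1a, the p53-induced CDK inhibitor p21, was at 136 CPM in WT and 295 in KO G2/M cells, a log2 ratio of 1.12 (1.0 to 1.24), and had a UMI in 28.5% and 52.6% of them at 5000 UMIs per cell. Ccnd1 was at 66.0 and 131 CPM (0.99, 0.82 to 1.17), and Phlda3, a p53 target that restrains AKT, at 83.4 and 151 CPM (0.85, 0.69 to 1.01). Mdm2, the p53 target that degrades p53, was at 47.3 and 57.4 CPM (0.28, 0.05 to 0.51), and Cdkn2c was lower in KO, at 61.5 and 47.5 CPM (-0.37, -0.60 to -0.14).

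Genes known as ATF4 targets were mostly higher in KO G2/M cells, which carried their own Atf4. Of 26 measured members 25 were higher, and the median was 0.38 against 0.52 in other melanoma cells. Over all measured genes the median in G2/M cells was 0.02. The interval lay above 0 for 17 of the members, a share that was not counted over all measured genes. Past 2-fold were 3 of the 26, against 1.15% of all measured genes. Nupr1, a stress-induced chromatin protein, was at 15.4 CPM in WT and 56.9 in KO (log2 ratio 1.88, 1.55 to 2.23), with 99 UMIs in 56 WT cells and 311 UMIs in 125 KO cells. Atf5, a related transcription factor, was at 10.7 and 29.3 CPM (1.45, 1.03 to 1.88), and Trib3, a pseudokinase that dampens the stress response, at 10.3 and 27.4 CPM (1.42, 0.99 to 1.86). Asns, the asparagine synthetase, was at 105 and 164 CPM (0.64, 0.50 to 0.79). Wars, a tryptophan tRNA synthetase, was the member on the other side, at 52.1 and 44.3 CPM (-0.24, -0.48 to 0.01).

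Heat shock genes and ER chaperones were mostly lower in KO. All 8 measured heat shock genes were lower in KO G2/M cells, with a median of -0.34 against -0.41 in other melanoma cells. Hsph1, a disaggregating chaperone, was at 120 CPM in WT and 74.6 in KO (-0.68, -0.86 to -0.51), and Hsp90aa1, the inducible HSP90, at 3342 and 2342 CPM (-0.51, -0.54 to -0.48). ER chaperones were lower in 12 of 14 cases, with a median of -0.21. Of 16 pigment and melanocyte genes outside the rule, 10 were lower and 6 higher in KO, with a median of -0.14. The 4 melanoma genes that the rule used to choose the cells were all lower in KO, with a median of -0.35. Pmel, the fibril protein of melanosomes, was at 2582 and 1868 CPM, and Dct, a melanin enzyme, at 5501 and 4503 CPM. Mc1r, the receptor for melanocyte-stimulating hormone, was higher in KO, at 35.9 and 65.7 CPM (0.87, 0.63 to 1.11). Because the pigment genes chose the cells, a limit of 1% of transcripts in place of 0.5% kept 378 WT but only 155 KO G2/M cells, and then 64 genes were past 2-fold higher and 65 lower.

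**Figure D5:**
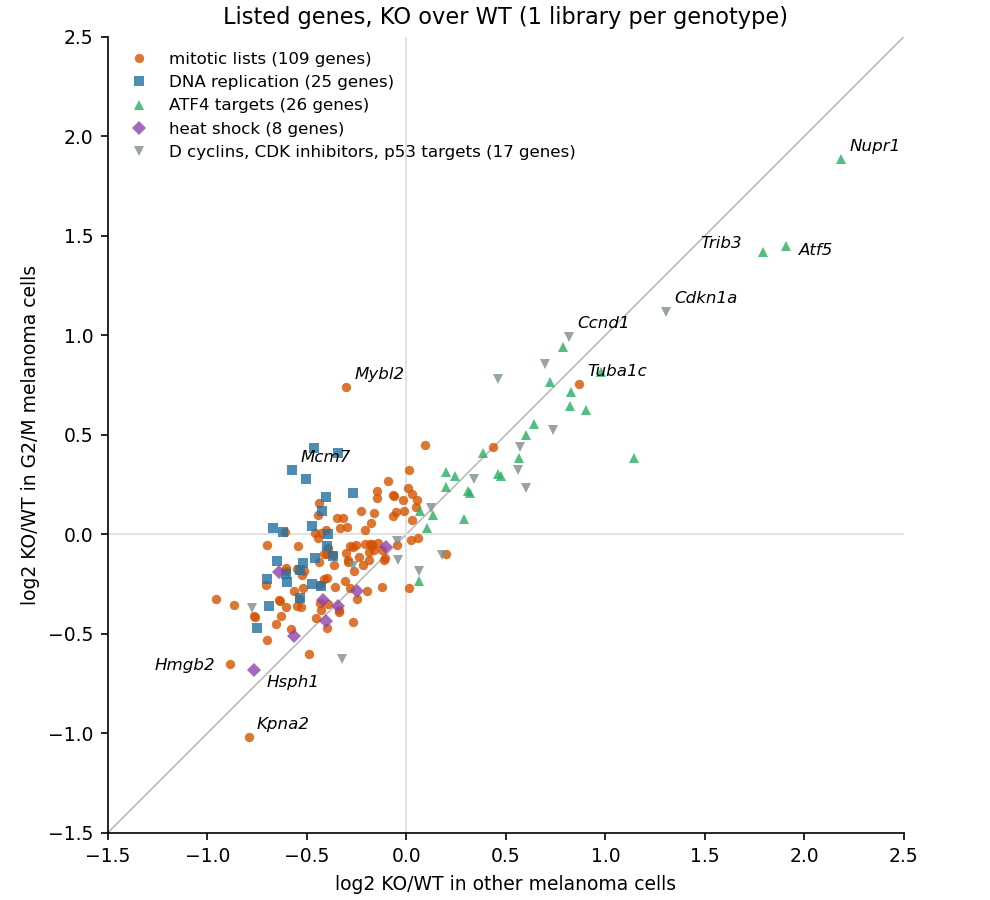
Log2 KO over WT ratio of single genes in G2/M cells (vertical axis) against the same ratio in other melanoma cells (horizontal axis), coloured by list. The medians of the mitotic lists lie between -0.17 and -0.02 on the vertical axis and between -0.42 and -0.20 on the horizontal axis, ATF4 targets lie above 0 for 25 of 26 genes, and the 8 heat shock genes lie below 0.

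The genes with the largest ratios of KO over WT in G2/M cells, among those with at least 200 UMIs, stood at much the same ratio in the other melanoma cells. The 10 highest were Lgals7, Nupr1, Wfdc17, 1700003F12Rik, Srxn1, Atf5, Trib3, Pck2, Blvrb and Sulf2. Lgals7, the p53-inducible galectin 7, was at 5.91 CPM in WT and 35.5 in KO (log2 ratio 2.59, 2.08 to 3.13; 2.21 in other melanoma cells), with 38 UMIs in 35 WT cells and 194 UMIs in 116 KO cells. Srxn1, which repairs oxidised peroxiredoxins, was at 9.49 and 27.8 CPM (1.55), and Blvrb, a biliverdin reductase, at 23.6 and 61.4 CPM (1.38). Pck2, the mitochondrial PEP carboxykinase, was at 11.5 and 30.5 CPM (1.41). Wfdc17 was less even among cells, since 88 of its 247 KO UMIs lay in 1 cell, and its ratio of 1.76 compared with 0.70 in other melanoma cells. Without the cell richest in it in each library, the ratio was 1.33 (0.93 to 1.75).

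On the lower side, the 10 leading genes were Hbb-bs, Gxylt2, Rpa3, Enpp2, Trpm1, Fdps, Gcdh, Ap1s2, Tmem107 and Brca1. Hbb-bs, a haemoglobin chain of red cells, had 815 UMIs in 102 WT cells, with up to 216 in 1 cell, and 0 in KO, and the red cell markers summed to 191 CPM in WT and 0 in KO G2/M cells. Trpm1, a melanocyte channel whose gene is driven by MITF, was at 220 CPM in WT and 104 in KO (-1.08, -1.22 to -0.94). Rpa3, the smallest subunit of the single-strand DNA binding complex, was at 131 and 54.5 CPM (-1.26, -1.46 to -1.07), and Brca1, which acts in homologous recombination, at 42.5 and 20.8 CPM (-1.03, -1.35 to -0.71). Fdps, the farnesyl diphosphate synthase of the sterol pathway, was at 434 and 210 CPM (-1.04, -1.14 to -0.94). A sterol list put together after these values had been seen had 19 of 22 members lower in KO G2/M cells, with a median of -0.32 against -0.47 in other melanoma cells. It includes Fdps itself, its only member past 2-fold. A list of NRF2 targets, put together in the same way after Srxn1 and Blvrb had been seen, had 12 of 18 members higher, with a median of 0.21. It includes Srxn1 and Blvrb, its only members past 2-fold. Over all measured genes the median was 0.02. As the genes that prompted them are members, these counts are a description only.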

How the data were processed

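Subcutaneous B16F10 tumours from WT and KO hosts were profiled with droplet-based single-cell RNA sequencing, as 1 library of 2 pooled tumours per genotype. The deposited matrices hold raw UMI counts, made by the authors with Cell Ranger 3.1.0 on GRCm38, as the submitters' processing notes name them, with an Ensembl annotation per the study's methods. Those notes also name Seurat 3.2.1. The labels and the study's methods give different kit versions, so depth was read from the counts. The files list 31053 genes.

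The study's limits on cells were applied (200 to 5000 genes, no more than 7.5% of UMIs from mitochondrial genes), which left 3861 WT cells (median 3920 UMIs) and 3557 KO cells (median 6279 UMIs). Doublets called by Scrublet, 96 in WT (2.49%) and 47 in KO (1.32%), were kept except in 1 alternative. For each class of cells in each library the UMIs of a gene were added up and divided by the class total (CPM). A gene was measured in G2/M over other melanoma cells with at least 50 UMIs over both classes in each library, and in KO over WT with at least 50 UMIs over both libraries. For a ratio, counts under 3 were set to 3. Sums have exact Poisson intervals, shares exact Clopper-Pearson intervals and ratios exact conditional binomial intervals, all at 95% and for counting error only. No p-value was computed, since cells are not replicates. To compare cells of unlike depth, each was thinned at random to a fixed number of UMIs and shallower cells were left out.

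The members and gene lists were chosen with earlier results of these data known. The sterol and NRF2 lists were added after values had been seen. Named genes were the rule genes, the 12 outside the rule with the largest ratio of G2/M over other melanoma cells in each direction (the weaker library deciding), the 10 with the largest KO over WT ratio in each direction among genes with at least 200 UMIs, and the 5 in each direction whose KO over WT ratio differed most from that in other melanoma cells, among genes with at least 100 UMIs in each class of each library. Other genes named are members of the lists, picked by role or by value. Promoters were matched by symbol to a RefSeq table of 32851 promoters of 27025 symbols, from 250 bases before to 50 after the start site. On simulated counts for KO over WT in G2/M cells (9288 genes) the intervals held the true value for 95.5% of unchanged genes. They held it for 90.9% of genes lowered 2-fold. Of genes lowered 2-fold or 4-fold, 59.1% and 100% came out past 2-fold. The counts were drawn with counting error alone, so this checks the calculation and not the spread among cells, tumours or libraries. Scripts ran under Python 3.11.15 with scipy 1.17.1, scanpy 1.11.5, pandas 2.3.3 and numpy 2.4.6, and with the TMM scaling of edgeR 4.0.16 under R 4.3.3 in 1 alternative.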

Additional observations from a re-analysis of the deposited data

Results flagged for a closer look

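In 5 flagged genes, G2/M cells stood on opposite sides of the other melanoma cells in WT and KO. Other genes did so too, such as Mcm7, at a log2 ratio of -0.45 (-0.61 to -0.29) in WT and 0.45 (0.28 to 0.61) in KO. How many of all measured genes did so was not counted. Intervals cover counting error only, and the difference between the libraries was not tested. Among the flagged genes, the log2 ratio was -0.55 in WT and 0.51 in KO for Bbs7, -0.83 and 0.71 for F13a1, -1.12 and 0.74 for Ifi27l2a, and -0.71 and 1.07 for Tm7sf2. For S100a9, a neutrophil gene, it was 4.39 in WT and -1.40 in KO, and the WT G2/M cells held 51 UMIs of it in 2 cells, 44 of them in 1 cell. In KO G2/M cells 1 cell held 20 of 65 F13a1 UMIs and 1 cell 43 of 136 Ifi27l2a UMIs. Without the G2/M cell richest in the gene in each library, the KO ratio was 0.19 (-0.36 to 0.71) for F13a1 and 0.19 (-0.18 to 0.55) for Ifi27l2a, and the WT ratio of S100a9 was 1.53 (-0.34 to 3.53). This alternative was chosen after seeing the data.

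The rule also found G2/M cells among melanoma cells that the quality limits had left out. Of the melanoma cells with over 7.5% and up to 15% mitochondrial UMIs, it held for 21.4% in WT (208 of 972) and 19.0% in KO (170 of 895). Above 15% mitochondrial UMIs it held for 2.61% in WT and 2.51% in KO, in cells with a median of 1801 and 1946 UMIs. Among melanoma cells with over 5000 genes it held for 26.3% in KO (5 of 19) and for 2 of 20 in WT.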

How the results depend on the processing

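No paired analysis was possible because WT and KO were 1 library each, which also leaves no replicate to leave out. The thinned G2/M share of 29.1% in WT was 24.5% with a 15% mitochondrial limit, 36.5% with at least 5 rule genes, 12.1% with at least 8, 16.0% at 3000 UMIs and 40.1% at 10000 UMIs. That of 22.1% in KO was 29.5% with at least 5 rule genes, 9.34% with at least 8, 13.3% at 3000 UMIs and 37.6% at 10000 UMIs, where the log2 KO over WT ratio was -0.093. The 106 genes more than 2-fold higher in G2/M cells became 370 against cells low for both programmes and 60 against other cells of the same UMI distribution. The 20 lower genes became 103 and 7 in these comparisons, 13 with at least 5 rule genes, 11 with pigment genes at 1% or more, 66 with each cell weighted equally and 47 with a minimum of 20 UMIs. For KO over WT, the 107 higher and 43 lower genes became 64 and 65 with pigment genes at 1% or more, and 255 and 115 with a minimum of 20 UMIs.

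Against S-phase cells alone the direction turned for the list medians of glycolysis and hypoxia (0.071), ATF4 targets (0.12) and immediate early genes (0.13), with each gene averaged over the libraries, and for Hspb1 (0.17) and Trp53cor1 (0.25). Against cells low for both programmes it turned for Ccne2 (1.82) and Lox (0.89). In each of these the comparison cells differ by construction in cell cycle stage. Of the results on the share and on counts of genes, 58 values under an alternative stayed within the limits set and 22 moved; of single genes and lists, 795 stayed, 101 moved and 7 reversed. Scaling by TMM, by the median of ratios or without mitochondrial and ribosomal protein genes moved the median of all genes by less than 0.1. Depth limits the rule itself, because a rule gene is seen less often in a shallow cell.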
